A study of Homo sapiens with 6 samples.

Results

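The genes described here are 10 genes of metal binding and zinc response, namely the metallothionein genes MT1A, MT1E, MT1F, MT1G, MT1H, MT1M, MT1X and MT2A, the regulator MTF1 and the exporter SLC30A1. The members are all array features whose gene name in the deposited annotation is one of these symbols, 19 features out of 45033, and every one of them is reported. A feature is a set of 3 probes for a transcript. The 8 metallothionein genes have 16 features, MTF1 has 2 and SLC30A1 has 1. All 10 genes were found on the array.

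Metallothioneins are small, cysteine-rich proteins that bind zinc, copper and cadmium, and they buffer the free zinc of the cell. The liver is a main site of their synthesis. Their genes are switched on by MTF1, a zinc-finger transcription factor that binds metal response elements in their promoters when free zinc rises. MTF1 also drives SLC30A1, which encodes the zinc exporter ZNT1 of the plasma membrane, so that SLC30A1 and the metallothionein genes are commonly read together as an index of zinc supply to a cell.

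The cells were HCC-LM3, a metastatic human hepatocellular carcinoma line. The knockdown cells, shASPP2, carried a lentiviral short hairpin RNA against ASPP2, the p53-binding protein encoded by TP53BP2, and the control cells, shNon, carried a control hairpin in the same kind of virus. RNA was taken 1 week after infection from 3 separate cultures of each group, and each RNA was hybridised to its own 1-colour (Cy3) expression array. The 6 cultures share the line and the medium, and the labels do not name the hairpin sequence or say how many hairpins against ASPP2 were used. The labels list no added metal, and the medium contained serum.

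The values are intensities on a linear scale, after the authors' RMA summary, and differences are given as log2 of shASPP2 minus log2 of shNon. The median intensity of a feature was between 111 and 122 on the 6 arrays, and random-sequence probes, which match no transcript, gave a level of 30.4 to 33.3. A feature is called dim below where it did not exceed 2 times that level on an array. Arrays correlated at 0.983 to 0.985 within shASPP2 and at 0.958 to 0.972 within shNon, with the lowest value between shNon replicates 1 and 3. The brighter TP53BP2 feature had 228, 216 and 147 in shASPP2, against 332, 488 and 452 in shNon (log2 difference -1.11, SE 0.25, limma adjusted p = 0.203, exact permutation p = 0.1, two-sided, the smallest that 3 arrays against 3 allow). The other feature had a log2 difference of -1.41 (SE 0.21, limma adjusted p = 0.0991). In both features the groups did not overlap and shASPP2 was lower, but neither passed the threshold of 0.05. Of 10 hepatocyte and liver carcinoma markers, 4 had a feature above 2 times the random-probe level on all arrays (ALB, KRT8, KRT18 and HNF4A), and the other 6, AFP and APOA1 among them, had none. For cells that the line should not hold, that count was 2 of 6 fibroblast and stellate genes, 1 of 6 endothelial genes (PECAM1) and 1 of 6 leukocyte genes (CD68). The summed level of the hepatocyte list was 40810 to 48030 in shASPP2 and 34790 to 37970 in shNon. Bright features weigh most in a sum, and 1 feature of KRT8 had 14330 ± 1678 in shASPP2 and 8766 ± 733 in shNon (SD, n = 3). Of the list's 26 features, 16 lay above 0 and 10 below. The groups did not overlap in 9 higher and 1 lower, beside 18.6% of all features in either direction. An unadjusted limma p under 0.05 was found in 9, all higher, beside 11.4% of all features. The leukocyte list summed to 3908 to 4486 in shASPP2 and 3024 to 3872 in shNon. The endothelial list summed to 1155 to 1381 in shASPP2 and 2173 to 2351 in shNon, most of it from 1 feature of PECAM1 (968 ± 134 in shASPP2 and 1866 ± 84.7 in shNon, SD, n = 3). The fibroblast list summed to 986 to 1629 in shASPP2 and 932 to 1642 in shNon, and no feature of these lists passed the threshold. The part of these shifts in the values below was not tested.

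MTF1 acts through promoter elements, so the promoters of MT2A, MT1X, MT1H and SLC30A1 are shown, to set what the window of each holds beside its values. Each is the 250 bases before the gene start in RefSeq on GRCh38.p14, read on the gene's own strand. Capitals mark the core of the metal response element, TGCACNC or TGCGCNC, on either strand. The windows are chr16:56608334-56608583 (plus strand) for MT2A, chr16:56682220-56682469 (plus strand) for MT1X, chr16:56669564-56669813 (plus strand) for MT1H and chr1:211579162-211579411 (minus strand) for SLC30A1.
MT2A: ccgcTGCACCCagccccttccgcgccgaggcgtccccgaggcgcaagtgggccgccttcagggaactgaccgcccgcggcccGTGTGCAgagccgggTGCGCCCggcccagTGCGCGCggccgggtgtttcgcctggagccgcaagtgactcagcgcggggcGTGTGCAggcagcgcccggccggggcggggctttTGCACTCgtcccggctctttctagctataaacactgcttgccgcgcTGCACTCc
MT1X: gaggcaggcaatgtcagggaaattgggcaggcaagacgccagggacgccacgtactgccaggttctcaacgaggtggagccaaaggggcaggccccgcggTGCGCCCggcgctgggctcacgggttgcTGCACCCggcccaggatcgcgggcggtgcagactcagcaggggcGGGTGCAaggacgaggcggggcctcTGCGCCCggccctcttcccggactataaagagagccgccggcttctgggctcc
MT1H: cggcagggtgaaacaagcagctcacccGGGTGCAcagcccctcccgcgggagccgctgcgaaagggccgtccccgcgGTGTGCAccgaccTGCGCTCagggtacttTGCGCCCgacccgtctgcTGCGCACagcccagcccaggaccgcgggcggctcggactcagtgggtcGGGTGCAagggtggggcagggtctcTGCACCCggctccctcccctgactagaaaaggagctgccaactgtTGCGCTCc
SLC30A1: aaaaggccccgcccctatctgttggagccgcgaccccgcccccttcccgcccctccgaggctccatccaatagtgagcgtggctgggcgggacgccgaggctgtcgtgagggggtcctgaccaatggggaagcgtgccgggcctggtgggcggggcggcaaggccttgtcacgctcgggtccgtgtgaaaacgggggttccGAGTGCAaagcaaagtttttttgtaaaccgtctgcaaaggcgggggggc

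MT1H had 8 cores in this window, MT2A had 7 and MT1X had 4, and no core overlapped another. Of 35116 promoters searched the same way, 0.0171% had at least as many cores as MT1H, 0.0313% at least as many as MT2A and 0.37% at least as many as MT1X. SLC30A1 had 1 core, on the strand opposite to the gene, which 24.8% of promoters matched or exceeded. MTF1 had none in its window. In MT1X, MT2A and MT1H a core lay 53 or 54 bases before the start. These matches describe letters in a window of the reference and are no measure of binding in these cells. No window is shown for MT1A, MT1E, MT1F, MT1G and MT1M.

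**Figure D1:**
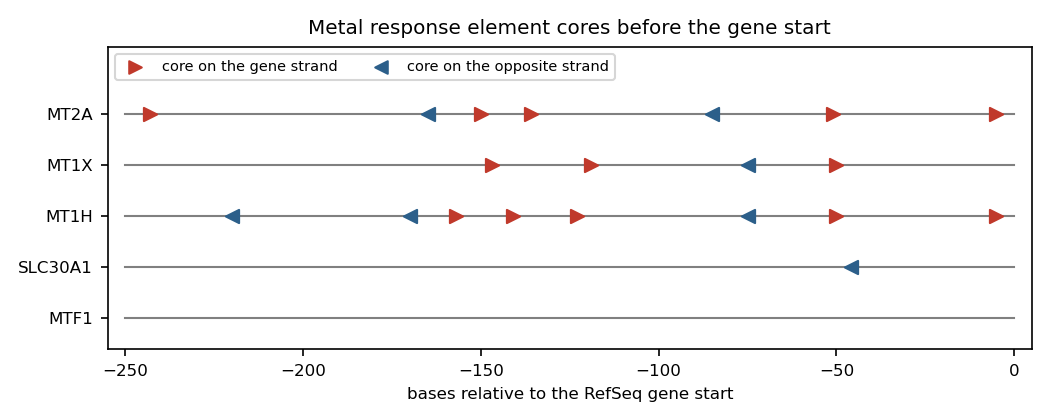
Metal response element cores in the 250 bases before the RefSeq start of 5 members. The x axis is the distance from the start in bases, red triangles are cores on the gene's strand and blue triangles cores on the opposite strand; MT1H has 8, MT2A 7, MT1X 4, SLC30A1 1 and MTF1 none.

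No change of any of the 10 genes was detectable in shASPP2 cells against shNon cells. None of the 19 features passed an adjusted p of 0.05 in limma, where 0.138% of all features did, and none had an unadjusted p under 0.05, where 11.4% of all features did. With trend and robust variance, a setting that called 2.11% of all features, the count of members was also 0. The median log2 difference over the 19 features was -0.08, beside 0.01 over all features, with a range of -0.75 to 0.18. The median over the members was -0.22 without shNon replicate 3 and 0.0214 without shNon replicate 1, so its sign rested on single arrays. Of the features, 6 lay above 0 and 13 below. The groups' arrays did not overlap in 1 feature (MT1H NM_005951), beside 18.6% of all features.

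**Figure D2:**
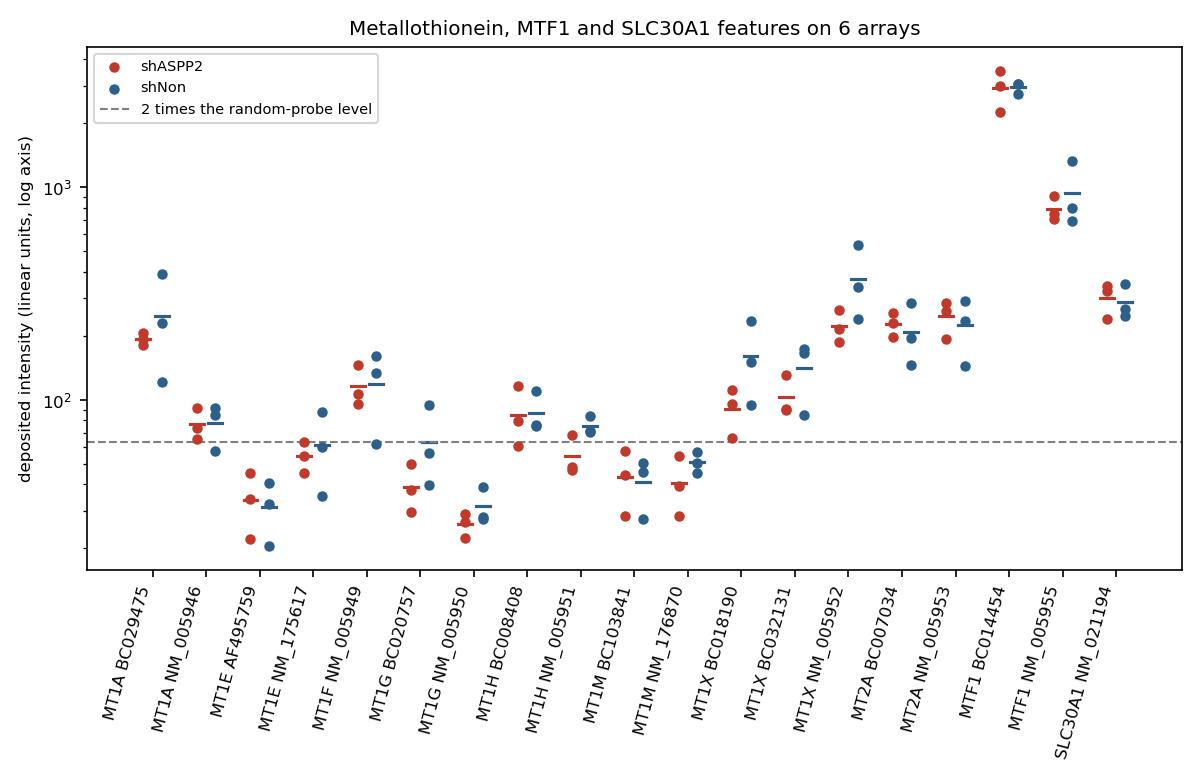
Deposited intensity (log axis) of the 19 member features on the 6 arrays, with shASPP2 in red on the left and shNon in blue on the right of each feature. Points are arrays and short lines are means of 3; the dashed line is 2 times the random-probe level, and the groups overlap in 18 of the features.

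The metallothioneins were close to the random-probe level in many of their features. On all 6 arrays 6 of the 16 metallothionein features exceeded 2 times that level, all of them from MT1A, MT1X or MT2A, while 4 features exceeded it on no array and the other 6 on some. Unspecific binding makes up much of the signal of a dim feature, so that a difference there can be understated. Every feature of MT1E, MT1G and MT1M was dim on at least 4 arrays.

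MT2A, usually the most widely expressed metallothionein, was measured by 2 features. Feature BC007034 (chromosome 16, 55199996 to 55200909, hg18) had 255, 229 and 198 in shASPP2, against 284, 196 and 146 in shNon. Feature NM_005953 had 262, 286 and 194 in shASPP2, against 293, 145 and 235 in shNon. In both features the shASPP2 arrays lay within the range of the shNon arrays. Their log2 differences were 0.17 (SE 0.27) and 0.18 (SE 0.30), with limma adjusted p-values of 0.848 and 0.852. The 95% intervals ran from 0.726 to 1.74-fold and from 0.699 to 1.84-fold, and a change of MT2A intensity beyond these limits lay outside the intervals. A further feature for a zinc-induced hybrid of MT2A and MT1A transcripts, AY077636, which has no gene name in the annotation and is no member, had 240, 201 and 196 in shASPP2, against 224, 147 and 160 in shNon (log2 difference 0.28, SE 0.22, limma adjusted p = 0.667).

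MT1X, an isoform expressed in many tissues, held the 2 largest differences among the metallothionein features. All 3 of its features had lower means in shASPP2, and none passed the test. Feature NM_005952 (chromosome 16, 55273895 to 55275609, hg18) had 215, 265 and 188 in shASPP2, against 239, 341 and 536 in shNon. Feature BC018190 had 65.8, 112 and 95.3 in shASPP2, against 94.2, 151 and 235 in shNon. Feature BC032131 had 90.1, 89.0 and 131 in shASPP2, against 84.4, 167 and 174 in shNon. In each of the 3 features the lowest shNon array, replicate 1, lay inside or below the shASPP2 range, so the groups overlapped. The log2 differences were -0.68 (SE 0.31, 95% interval -1.41 to 0.05), -0.75 (SE 0.36) and -0.41 (SE 0.32), with limma adjusted p-values of 0.473, 0.490 and 0.671. With an array left out the log2 difference of NM_005952 was between -0.96 (without shNon replicate 1) and -0.37 (without shNon replicate 3). That of BC018190 was between -1.09 and -0.43 and that of BC032131 between -0.74 and -0.22, with the same 2 arrays at the ends. The 3 features cover nearly the same interval, so they are repeated readings of 1 gene and not separate evidence.

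MT1A, a metallothionein known for its induction by zinc and cadmium, varied widely between control cultures in BC029475 and less in NM_005946. Feature BC029475 (chromosome 16, 55230081 to 55231498, hg18) had 206, 194 and 181 in shASPP2, against 390, 231 and 121 in shNon. The shASPP2 arrays thus spanned 1.14-fold and lay inside the range of the shNon arrays, which spanned 3.21-fold. Its log2 difference was -0.20 (SE 0.39, limma adjusted p = 0.883), and it was 0.21 without shNon replicate 1. The other MT1A feature, NM_005946, was near the dim limit at 91.1, 73.9 and 65.4 in shASPP2 and 91.6, 85.1 and 57.5 in shNon. Its log2 difference was -0.01 (SE 0.24). NM_005946 spanned 1.39-fold in shASPP2 and 1.59-fold in shNon, so the wide control spread was not repeated there.

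MT1F, a further zinc-binding isoform, had a single feature, NM_005949, with 96.0, 107 and 146 in shASPP2, against 134, 161 and 61.6 in shNon. Its log2 difference was 0.06 (SE 0.37, limma adjusted p = 0.968), and the shASPP2 arrays lay inside the shNon range.

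MT1H was the metallothionein whose arrays separated in a feature. Feature NM_005951 (chromosome 16, 55261274 to 55262542, hg18) had 46.6, 48.4 and 68.3 in shASPP2, against 83.6, 71.1 and 70.8 in shNon. All shASPP2 arrays were below all shNon arrays, but the nearest values, 68.3 in shASPP2 and 70.8 in shNon, were almost equal, and 2 shASPP2 arrays were below the dim limit. The log2 difference was -0.48 (SE 0.21, 95% interval -0.98 to 0.01, limma adjusted p = 0.452). The second MT1H feature, BC008408, had 116, 79.4 and 60.6 in shASPP2, against 110, 75.2 and 75.9 in shNon, with a log2 difference of -0.06 (SE 0.29), so the separation was not seen there. A feature with the symbol MT1HL1, NM_001039954, is no member but covers nearly the same interval (55261246 to 55262541). It had 59.7, 128 and 70.3 in shASPP2, against 127, 48.6 and 35.9 in shNon. Its log2 difference was 0.42 (SE 0.50, limma adjusted p = 0.783), and it exceeded the dim limit on 3 arrays.

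MT1G, MT1E and MT1M could hardly be told from unspecific signal. Of the MT1G features, BC020757 had 49.8, 37.8 and 29.7 in shASPP2, against 39.8, 56.1 and 94.2 in shNon (log2 difference -0.64, SE 0.35, limma adjusted p = 0.537), and it exceeded 2 times the random-probe level on 1 array, shNon replicate 3. Its log2 difference was -0.31 without that array and -0.93 without shNon replicate 1. The other, NM_005950, was at 22.4 to 28.9 in shASPP2 and 27.6 to 39.1 in shNon, level with the random probes, with a log2 difference of -0.27. The MT1E features had log2 differences of 0.12 (AF495759) and -0.08 (NM_175617), and the MT1M features of 0.06 (BC103841) and -0.36 (NM_176870). The last was -0.13 without shASPP2 replicate 1 and -0.59 without shASPP2 replicate 3. AF495759 and both MT1M features exceeded the dim limit on no array, and their differences have no reliable size.

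MTF1, the metal-sensing transcription factor, was clearly detected. Feature BC014454 (chromosome 1, 38053204 to 38097854, hg18) had 2266, 3533 and 2985 in shASPP2, against 3065, 3075 and 2759 in shNon. Feature NM_005955 had 708, 909 and 749 in shASPP2, against 695, 802 and 1325 in shNon. The log2 differences were -0.04 (SE 0.21, limma adjusted p = 0.959) and -0.20 (SE 0.27, limma adjusted p = 0.811). In the first feature the shASPP2 arrays enclosed the shNon arrays, and in the second the shNon arrays enclosed the shASPP2 arrays. The 95% intervals ran from 0.689 to 1.37-fold and from 0.558 to 1.35-fold. Zinc acts on the MTF1 protein, so its transcript level is no readout of its activity.

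SLC30A1, the exporter whose transcription follows zinc through MTF1, had 324, 343 and 241 in shASPP2, against 268, 247 and 351 in shNon (feature NM_021194, chromosome 1, 209815003 to 209818722, hg18). The log2 difference was 0.07 (SE 0.23, 95% interval 0.727 to 1.51-fold, limma adjusted p = 0.933). Each group had 1 array that lay with the other group, and the feature was above the dim limit on all arrays.

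**Figure D3:**
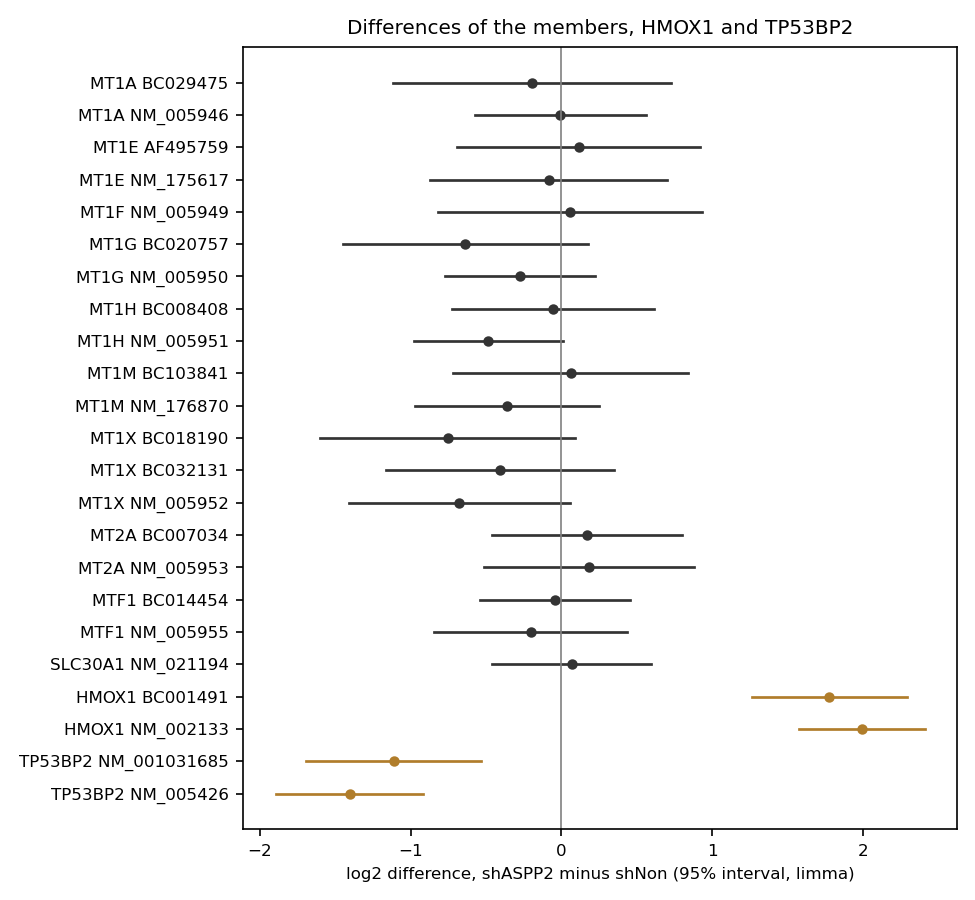
Log2 difference (shASPP2 minus shNon) with its 95% interval from limma for the 19 member features (dark) and, for comparison, the features of HMOX1 and TP53BP2 (brown). Every member's interval includes 0, while the HMOX1 features lie at 1.78 and 1.99 and the TP53BP2 features at -1.11 and -1.41.

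Intensities varied more between the control cultures than between the knockdown cultures, over the metallothionein features and also over all features. The median SD of log2 intensity was 0.31 in shASPP2 and 0.51 in shNon over the 16 metallothionein features, and 0.23 in shASPP2 and 0.31 in shNon over all features. The SD was larger in shNon in 68.8% of metallothionein features, beside 64.8% of all features. Of the metallothionein features above the dim limit on all arrays it was larger in shNon in 6 of 6. Their median SD was 0.27 in shASPP2 and 0.58 in shNon. These 6 came from MT1A, MT1X and MT2A, and features of the same gene are repeated readings and not separate evidence. Of all features above that limit on all arrays, the SD was larger in shNon in 65.1%, with a median SD of 0.17 in shASPP2 and 0.22 in shNon. The array of shNon replicate 3 was the lowest of all 6 in 7 metallothionein features and the highest in 5, together 75% of them, beside 46.2% of all features. It was the lowest in both features of MT1A and of MT1E, in MT1F, and in BC103841 of MT1M and BC007034 of MT2A. It was the highest in the 3 features of MT1X, in BC020757 of MT1G and in NM_176870 of MT1M.

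Because metallothionein genes lie side by side and their transcripts are nearly alike, probes of 1 gene can pick up RNA of another, and the likeness between features was therefore measured. All 16 features lie within 75.6 kb of chromosome 16 (55199996 to 55275609, hg18). Features of the same gene overlapped by 99.68% to 100% of the shorter interval and features of different genes not at all. Likeness was taken as the root mean square difference between the log2 values of 2 features over the 6 arrays, each centred on its own mean, so that 0 means the same pattern. Its median was 0.386 for 9 pairs of features of 1 gene and 0.528 for 111 pairs from different genes, and the ranges overlapped, at 0.223 to 0.555 for features of 1 gene and 0.161 to 0.949 for features of different genes. The most alike pair came from different genes, NM_005946 of MT1A and BC007034 of MT2A (0.161). Pairs share arrays and features, so these values are a description with no test. Probe sequences were not used here, and how far each feature reads its own gene was not tested.

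Features of different genes also moved apart within an array. The log2 ratio of MT1X (NM_005952) to MT1A (BC029475) within an array was 0.06, 0.45 and 0.05 in shASPP2, against -0.71, 0.56 and 2.14 in shNon. In shNon replicate 3 the MT1X feature had the highest and the MT1A feature the lowest of its 6 values, and in shNon replicate 1 the MT1A feature had its highest. The ratio of MT1X to MT2A (BC007034) was -0.25, 0.21 and -0.08 in shASPP2, against -0.25, 0.80 and 1.88 in shNon. A ratio of this kind shows unequal change between features and not which of them changed.

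**Figure D4:**
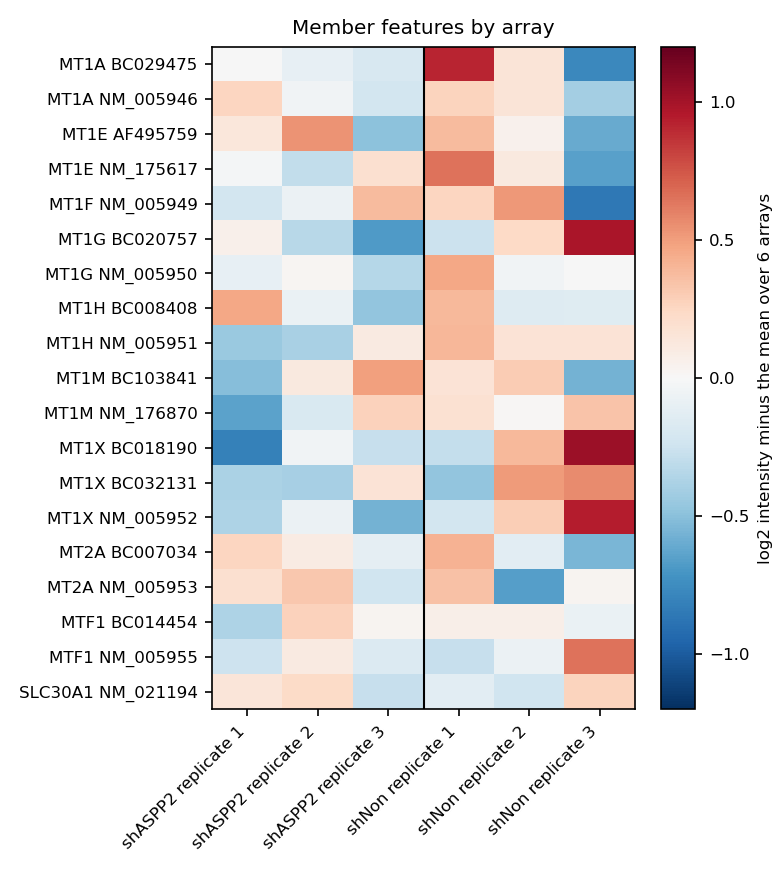
Log2 intensity of each member feature minus its mean over the 6 arrays (colour scale), with shASPP2 arrays left of the black line and shNon arrays right of it. The column of shNon replicate 3 holds the strongest red (1.03, BC018190 of MT1X) and the strongest blue (-0.86, MT1F). BC020757 of MT1G is also red there (0.98), and MT1A and MT1E are blue. Other columns hold strong colours too, such as BC029475 of MT1A in shNon replicate 1 (0.91) and BC018190 in shASPP2 replicate 1 (-0.81).

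Features of genes outside the zinc system had nearly the same pattern across arrays as MT1X. Among 22851 other features above 2 times the random-probe level on all arrays, the nearest to NM_005952 by the same measure were SPATA2 (0.0738), DYNC2LI1 (0.0986), C14orf93 (0.109), CADPS2 (0.111) and PRKAG2 (0.112). SPATA2 had 120, 148 and 94.1 in shASPP2, against 117, 176 and 274 in shNon. All 5 were highest in shNon replicate 3. With 6 arrays and this many features searched, the nearness is a description with no test.

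The other genes of zinc handling also held no feature past the threshold. Most SLC30 carriers move zinc out of the cytosol and most SLC39 carriers bring zinc into it, though not every member does so. Of 9 further SLC30 genes and 14 SLC39 genes, none of 18 and 29 features passed, with median log2 differences of -0.07 and -0.08. SLC30A7, a zinc carrier of the secretory pathway, had the smallest p of its list at 301 ± 40.5 in shASPP2 and 425 ± 50.9 in shNon (SD, n = 3; log2 difference -0.50, limma adjusted p = 0.396). SLC30A5, a further carrier of the secretory pathway, had a log2 difference of 0.68 in a feature dim on 3 arrays (limma adjusted p = 0.487). Its features above the dim limit on all arrays had log2 differences of -0.27 (NM_022902) and 0.006 (NM_024055). SLC39A11 had 285 ± 25.4 in shASPP2 and 433 ± 100 in shNon (SD, n = 3). Its log2 difference was -0.58 (limma adjusted p = 0.391). A dim SLC39A13 feature had a log2 difference of -0.52. Feature NM_152264 of SLC39A13, above the dim limit on all arrays, had -0.11 and the groups overlapped. SLC39A3 had 764 ± 136 in shASPP2 and 551 ± 80.7 in shNon in NM_144564 (SD, n = 3; log2 difference 0.47, limma adjusted p = 0.464), and 0.32 with overlap in NM_213568. Of the 29 SLC39 features, 11 lay above 0 and 18 below. The groups did not overlap in 1 higher (NM_144564) and 3 lower, beside 18.6% of all features in either direction. SLC39A10, an importer that MTF1 represses in mouse liver, had log2 differences of 0.31, -0.08 and -0.05 in its 3 features. Copper handling genes, whose metal also binds metallothioneins, had a median log2 difference of 0.02 over 15 features and none past the threshold. The smallest p there belonged to both features of the copper importer SLC31A1, both at -0.35, without overlap and lower in shASPP2 (limma adjusted p = 0.499 and 0.50).

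Further metallothionein loci, among them MT3, MT4, MT1B and the pseudogenes MT1L and MT1JP, were mostly dim. Of their 14 features none passed, 1 was above the dim limit on all arrays, and the median log2 difference was 0.20. The smallest p belonged to a feature of the pseudogene MT1P3 on chromosome 20 (NM_080757), with 117, 110 and 178 in shASPP2, against 92.7, 62.3 and 62.7 in shNon (log2 difference 0.88, SE 0.26, limma adjusted p = 0.300). The other MT1P3 feature had -0.26. MT1XP1 had 0.56 and was dim on every array.

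Genes next to the metallothionein cluster on chromosome 16 had no feature past the threshold among 18, and a median log2 difference of -0.03. BBS2, a gene of the primary cilium just outside the cluster, had the smallest p. Its features had 274, 247 and 264 in shASPP2, against 406, 546 and 547 in shNon, for NM_031885, and 277, 279 and 333 in shASPP2, against 350, 529 and 488 in shNon, for BC014140. The groups did not overlap in either feature, and shASPP2 was lower, with log2 differences of -0.92 (SE 0.19, limma adjusted p = 0.187) and -0.60 (SE 0.22, limma adjusted p = 0.366).

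Genes that metals and oxidants induce by other routes were set beside the members. Of 22 features of 11 such genes, 2 passed the threshold, both higher in shASPP2, where 0.138% of all features passed in either direction. Both belonged to HMOX1, the haem oxygenase that cadmium, haem and oxidants induce, in large part through NRF2. In the whole list 19 features lay above 0 and 3 below. The groups did not overlap in 14 higher and 2 lower features, beside 18.6% of all features in either direction. An unadjusted limma p under 0.05 was found in 7, all higher, beside 11.4% of all features. Feature NM_002133 of HMOX1 had 5156, 6140 and 5216 in shASPP2, against 1380, 1510 and 1259 in shNon (log2 difference 1.99, SE 0.18, limma adjusted p = 0.0164). Feature BC001491 had 3661, 4721 and 5183 in shASPP2, against 1090, 1534 and 1333 in shNon (log2 difference 1.78, limma adjusted p = 0.0486). Both calls were lost with any 1 of the 6 arrays left out, with limma adjusted p-values of 0.0626 to 0.162 for NM_002133 and 0.119 to 0.317 for BC001491, while the log2 differences stayed between 1.91 and 2.06 and between 1.65 and 1.92. The median of the list was 0.34 log2. Other genes known as NRF2 targets did not pass. GCLM had log2 differences of 0.32 (BC041809) and 0.36 (NM_002061), and GCLC had 0.36 (BC039894) and 0.33 (NM_001498). TXNRD1 had 0.21. In BC041809, BC039894 and the TXNRD1 feature shASPP2 was higher without overlap. NQO1, a quinone reductase, had log2 differences of -0.33 in NM_000903, where shASPP2 was lower without overlap, and -0.04 in BC007659. SLC7A11, a cystine importer, had -0.19 in NM_014331, also lower without overlap, 0.03 in AB040875 and 0.11 in BC012087, and SRXN1, which reduces oxidised peroxiredoxins, had 0.11. HSPH1, a heat shock chaperone, had log2 differences of 0.91 and 1.00 (limma adjusted p = 0.172 and 0.129). BAG3 had 0.64 and 0.70, features with the symbol HSPA1A had 0.28, 0.56 and 0.40, and DNAJB1 had 0.25 and 0.38. In all of these features shASPP2 was higher without overlap, and none passed the threshold. The HSPA1A feature at 0.56, BC009322, lies on another interval of chromosome 6 (31903666 to 31906010, hg18) than the other features of that symbol (31891298 to 31893698). The listed HSPA1B had no feature under its own symbol, and which gene BC009322 reads was not tested. The 95% intervals of the HMOX1 features began at 2.98-fold and 2.40-fold, while those of MT2A ended at 1.84-fold and 1.74-fold and that of SLC30A1 at 1.51-fold. These limits are for intensities at unlike levels. Group means were 40.6 to 180 times the random-probe level for HMOX1, 6.42 to 8.08 times for MT2A and 8.84 to 9.88 times for SLC30A1. Unspecific binding is a larger part of a weaker signal, so the limits are not limits on RNA. The difference between genes was not tested.

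Glucocorticoids also induce metallothionein genes, and genes of that response had no feature past the threshold among 14. The smallest p-values pointed both ways, with TAT, a liver enzyme gene, at -0.995 (limma adjusted p = 0.253) and the clock gene PER1 at 1.14 (limma adjusted p = 0.267). Both lay near the random-probe level in a group, TAT at 32.0 ± 3.24 in shASPP2 and 66.0 ± 22.5 in shNon, and PER1 at 78.8 ± 26.8 in shASPP2 and 35.3 ± 10.4 in shNon (SD, n = 3).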

How the data were processed

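Expression was measured in 6 RNA samples, 3 shASPP2 and 3 shNon, on 1-colour arrays. The authors deposited a linear intensity for each feature in each sample. The submitters' processing notes name RMA, without its settings. The series' value table and the per-sample files were identical (0 differing cells). Positions are on hg18 per the file headers. Members were matched by the file's gene name, and other genes by symbols updated through gene identifiers in a RefSeq table (38916 features matched). Promoter windows came from RefSeq (GRCh38.p14).

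Log2 values of the deposited intensities of all 45033 features were fitted with limma 3.58.1 (lmFit, eBayes) under R 4.3.3, two-sided, with no term besides group, with Benjamini-Hochberg adjustment over all features and a threshold of 0.05. The fit was tested on simulated data. Errors of log2 differences are moderated standard errors, and 3 arrays per group limit the precision. All member features are named. Of each other list, features past the threshold are named, or else the 2 with the smallest p. The values of SLC39A3, SLC39A10, HSPH1, NQO1, SLC7A11, SRXN1, the MT1HL1 feature and the second MT1P3 feature were added after they were seen. So were those of BAG3, HSPA1A, DNAJB1, GCLM, GCLC and TXNRD1, and of the further SLC30A5 and SLC39A13 features. The members and lists were chosen with earlier results of these data known. Alternatives were the series' value table, other normalizations, filters on dim features, variance models, weights, an offset, the replicate number as a block, 1 feature per gene, and leaving out each array. The same settings were applied to HMOX1, a choice made after seeing the data. Background correction could not be varied, and slides and scan dates were not used here.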

Additional observations from a re-analysis of the deposited data

How the results depend on the processing

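No member feature passed the threshold under any of the 11 alternatives or with any of the 6 arrays left out, with adjusted p-values of at least 0.269. Among the 11 is the series' value table, which is identical to the main input, so its result was fixed in advance. With the replicate block and without each shASPP2 array no feature of the whole table passed, so a count of 0 there says nothing about the members. Of the alternatives, 5 can change a log2 difference (median centring, quantile normalization, cyclic loess, array weights and the offset), and 92 of 95 values of member features kept their direction under them. The exceptions were MT1E AF495759 (-0.0451 with array weights) and MT1F NM_005949 (-0.0117 with cyclic loess and -0.0483 with array weights), and the cause was not tested. With an array left out, 93 of 114 values kept their direction. The ranges that crossed 0 were -0.63 to 0.21 and -0.21 to 0.12 for MT1A BC029475 and NM_005946, -0.16 to 0.39 and -0.43 to 0.22 for MT1E AF495759 and NM_175617, -0.36 to 0.33 for MT1F, -0.30 to 0.16 for MT1H BC008408, -0.21 to 0.34 for MT1M BC103841, -0.0621 to 0.42 and -0.10 to 0.41 for MT2A BC007034 and NM_005953, -0.19 to 0.13 and -0.39 to 0.0706 for MTF1 BC014454 and NM_005955, and -0.0355 to 0.22 for SLC30A1. The direction turned without shASPP2 replicate 1 in BC014454 of MTF1, without shASPP2 replicate 2 in NM_005946 of MT1A, both MT1E features and SLC30A1, without shASPP2 replicate 3 in NM_005946, MT1F, BC008408 of MT1H and BC103841 of MT1M, without shNon replicate 1 in both MT1A features, NM_175617 of MT1E and BC008408, without shNon replicate 2 in NM_005946, NM_005953 of MT2A and SLC30A1, and without shNon replicate 3 in AF495759 of MT1E, MT1F, BC103841, BC007034 of MT2A and NM_005955 of MTF1. The median over member features ran from -0.22 (without shNon replicate 3) to 0.0214 (without shNon replicate 1), and was -0.20 when only the 9 member features above the median level were tested.

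The count of all features past the threshold, 62, was 207 and 405 with the filters at 2 times the random-probe level and at the median level, 952 with trend and robust variance, 378 with an offset of 50, 24 with 1 feature per gene (fewer features tested) and 0 with the replicate block, and it ran from 0 to 17 with an array left out (17, 4 and 17 without shNon replicates 1, 2 and 3; fewer samples). With the replicate block 4212 features had an unadjusted p under 0.05. The deviations of same-numbered arrays from their group means had correlations of 0.056, -0.076 and -0.126. Those of differently numbered arrays ran from -0.09 to 0.144. The labels give only a replicate number, and these values cannot show whether same-numbered cultures were prepared together. Both HMOX1 calls were also lost with the replicate block (adjusted p = 0.202 for NM_002133 and 0.299 for BC001491) and held under the other alternatives in which each feature was tested. Under trend and robust variance the brighter TP53BP2 feature, at -1.11, passed the threshold (limma adjusted p = 0.0225). Dim signal limits MT1E, MT1G and MT1M in every setting. With 3 arrays per group, changes of a member within its interval remain compatible with the data.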
